A study of Mus musculus with 31 samples.

Results

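Potassium channel genes were followed in mouse cortex through mRNA sequencing and ribosome profiling, which sequences the mRNA fragments covered by ribosomes (footprints). They were taken by name: 93 gene symbols of the deposited tables begin with Kcn, a subfamily letter and a number, and the 71 of them with a mean of at least 1 CPM (the count divided by the library total in units of 1 M) in wild-type mRNA are the members described here, out of 20436 genes in the tables. The nearest members above that threshold were Kcne1l at 1.15 CPM, Kcnj13 at 2.18 and Kcnj14 at 2.25, and the nearest symbols below it were Kcnq1 at 0.955, Kcng3 at 0.937 and Kcnh8 at 0.886. All 71 members passed the filter on low counts in both assays. They fall into 20 subfamilies, grouped here as 15 voltage-gated pore subunits, 8 modifier subunits, 11 M-type and EAG-related subunits, 7 calcium- and sodium-activated pore subunits, 12 inward rectifiers, 8 K2P leak channels and 10 auxiliary subunits.

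The cortices came from mice of postnatal day 29 to 34. The groups are wild type (WT), Fmr1-deficient (FXS), Rps6kb1-deficient, lacking the S6 kinase S6K1 (S6K1), and deficient in both genes (DKO). The alleles, the strain and whether each library was a separate animal are not given in the sources used here, nor is whether footprints and mRNA came from the same animals, so p-values measure the spread between libraries, which may in part be technical. There were 4 mRNA libraries of each genotype, 1 of each in batches 5 to 8, and 15 footprint libraries (4 WT, 5 FXS, 3 S6K1, 3 DKO) spread unevenly over batches 1 to 4. Total counts ran from 12.1 to 17.3 M per mRNA library and from 16.6 to 34.9 M per footprint library. The members held 40750 to 60205 counts of each mRNA library and 48865 to 93070 of each footprint library, or 0.288% to 0.362% and 0.255% to 0.334% of the total. Fmr1 mRNA lay between 10.6 and 22.1 CPM in the FXS and DKO libraries against 55.6 to 82.6 in WT and S6K1, and Rps6kb1 footprints lay between 7.62 and 12.8 CPM in S6K1 and DKO against 26.1 to 36.3 in WT and FXS, so both targeted genes followed the labels.

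Potassium channels let potassium leave or enter a neuron along its gradient and so set the resting potential, the shape of the action potential and the interval between spikes. Voltage-gated (Kv) channels open on depolarization, and their modifier and auxiliary subunits alter the gating or the transport of the pore. Calcium-activated channels couple spikes to internal calcium, inward rectifiers and K2P channels carry current near rest, and M-type channels restrain repeated firing. FMRP, the RNA-binding protein made from Fmr1, is known to bind neuronal mRNAs and some channel proteins, and S6K1 phosphorylates the ribosomal protein S6 and other parts of the translation machinery.

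How much ribosome occupancy each channel mRNA carried in WT was read from the translational efficiency (TE), the log2 ratio of footprint CPM to mRNA CPM, in which the length of the gene cancels. The potassium channel genes ranged from -4.07 ± 0.36 (SE) for Kcnj8 to 2.11 ± 0.217 for Kcna2. Their median was -0.57 against -0.35 over the 13654 genes tested, and 33 of the 71, or 46.5%, lay above the all-gene median. Their middle values ran from a lower quartile of -1.45 to an upper quartile of 0.39, against -1.18 and 0.38 over all genes.

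Kv1 channels, which hold axons and nerve terminals back from repeated spiking, had the highest TE of the subfamilies with 3 or more members, with a median of 1.35 and 5 of 6 genes above the all-gene median. Kcna2 gave 17.6, 19.7, 24.1 and 30.3 CPM in the 4 WT mRNA libraries but 83.3, 86.5, 99.3 and 125 CPM in the 4 WT footprint libraries, so no footprint library reached down to the mRNA range. Kcna3 stood at 1.71 ± 0.2, Kcna6 at 1.49 ± 0.137 and Kcna1 at 1.21 ± 0.176. Kcna5 was the exception of the subfamily, at -2.02 ± 0.312. The Kv beta subunits, which bind Kv1 pores in the cytoplasm, were also on the high side, with a median of 1.05 and all 3 above the all-gene median, Kcnab1 at 1.11 ± 0.0735, Kcnab2 at 1.05 ± 0.108 and Kcnab3 at 0.29 ± 0.109.

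The 5 highest values were those of Kcna2, Kcnh7 (2.06 ± 0.195), Kcna3, Kcnh5 (1.63 ± 0.108) and the K2P leak channel Kcnk9 (1.57 ± 0.16), and each differed from the next in that order by less than 2 standard errors. Kcnh7 encodes an ERG channel and Kcnh5 an EAG channel. The RefSeq span of Kcnh7 overlaps the protein-coding gene Gca, and that of Kcnab2 overlaps Nphp4.

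At the other end stood Kcnj8 (-4.07), the pore of a vascular ATP-sensitive channel, followed by Kcnmb4 (-3.24 ± 0.135), the neuronal beta subunit of the BK channel, Kcnh3 (-3.15 ± 0.172), an ELK channel of the forebrain, Kcnn1 (-2.59 ± 0.102), the SK1 channel, and Kcnj16 (-2.40 ± 0.277), a glial inward rectifier. Kcnj8 rested on 26 footprint counts over the 4 WT libraries and 221 mRNA counts. Kcnmb4 and Kcnh3 were not short of mRNA: the WT mean of Kcnmb4 was 113 ± 9.63 CPM (SD, n = 4) for mRNA and 12 ± 1.85 for footprints, and that of Kcnh3 was 319 ± 65.0 and 35.8 ± 3.59. The span of Kcnh3 overlaps Mcrs1, and it was not stated whether counting used the strand.

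**Figure D1:**
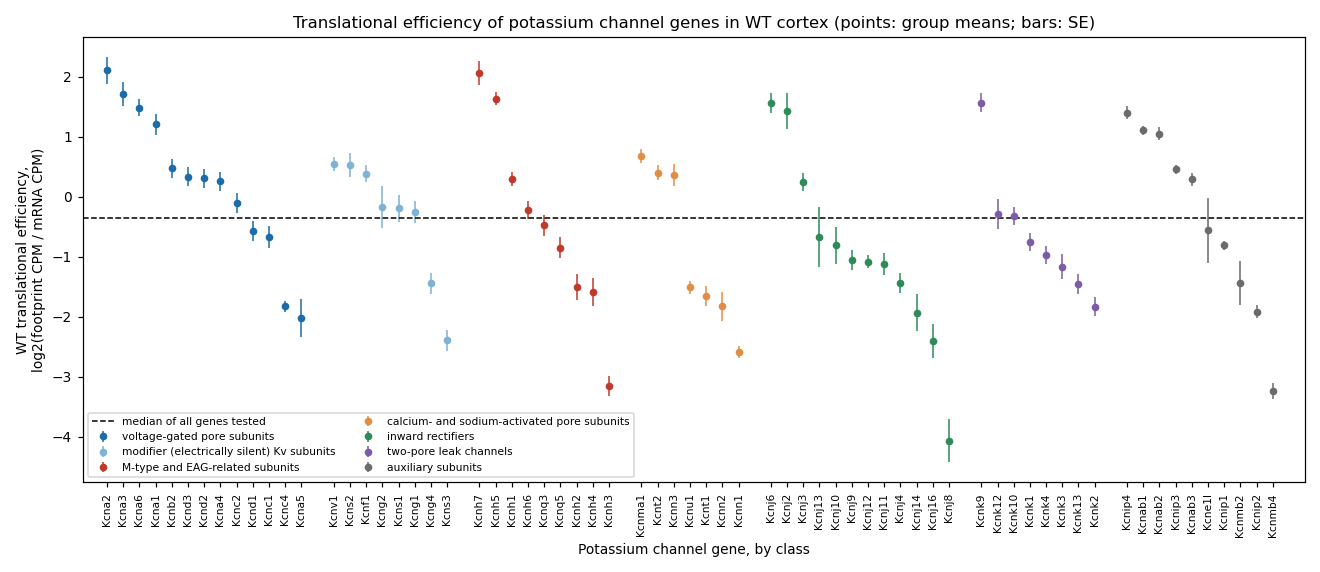
Translational efficiency in WT (vertical axis, log2 of footprint CPM over mRNA CPM) of 67 of the 71 potassium channel genes, grouped by class and sorted within it. Points are ratios of plain group means over 4 mRNA and 4 footprint libraries, without batch adjustment. Bars are standard errors and the dashed line is the median of all genes tested. Kcna2 lies highest and Kcnj8 lowest, and every class holds genes on both sides of the dashed line.

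Kv7 subunits, which form the M-current, lay on the low side: Kcnq3 stood at -0.47 ± 0.173 and Kcnq5 at -0.85 ± 0.178, and 0 of 4 lay above the all-gene median. The inward rectifiers had a median of -1.07 with 3 of 12 above it, namely Kcnj6 (1.56 ± 0.168), a G-protein-gated subunit, Kcnj2 (1.43 ± 0.299) and Kcnj3 (0.24 ± 0.154). The K2P leak channels had a median of -0.86, with 3 of 8 above. The SK channels had a median of -1.83, and Kcnn3 alone of the 3 lay above the all-gene median, at 0.36 ± 0.18. The BK pore Kcnma1 (0.68 ± 0.12) and its beta subunits Kcnmb2 (-1.43 ± 0.369) and Kcnmb4 stood far apart in the same cortex. Kv4 pores and their KChIP partners carry the A-type current together. The KChIP genes spread widely, from -1.91 ± 0.107 for Kcnip2 to 1.40 ± 0.11 for Kcnip4, while the Kv4 pores ran from -0.57 to 0.34.

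In mRNA, few potassium channel genes were called between genotypes. Of the 71, 1 gene passed an adjusted p of 0.05 (edgeR quasi-likelihood test, Benjamini-Hochberg over 14215 genes) in DKO against WT, and it was Kcnj11, which was higher. The share of all genes called in that comparison was 5.23% in either direction and 3.17% higher, so 1 of 71 was below the background. No member was called in FXS against WT (all genes: 0.155%), S6K1 against WT (0.0211%), DKO against FXS (0.0281%), DKO against S6K1 (0.387%) or the interaction (0%), which is the effect of Fmr1 loss without S6K1 minus its effect with S6K1. At an unadjusted p under 0.05, 12 members were higher and 2 lower in DKO against WT, where 12.2% and 10.2% of all genes were. There were 4 higher and 2 lower in FXS against WT (all genes: 6.77% and 5.95%) and 13 higher and 0 lower in DKO against S6K1 (7.93% and 6.87%). S6K1 against WT had 1 higher and 1 lower, where 7.37% of all genes passed in either direction, DKO against FXS 6 and 1 (9.81%) and the interaction 2 and 0 (3.5%). DESeq2 called 4 members in DKO against WT, where it called 7.63% of all genes, and 3 in DKO against S6K1 (2.49%). With limma voom 1 was called in DKO against WT (5.66%), and both tools called 0 members in the other contrasts of mRNA.

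The typical channel mRNA was nonetheless a little higher in DKO. The median log2 fold change of the 71 was 0.08 in DKO against WT, with 48 genes positive, while the median of all genes was -0.0033. It was 0.04 in FXS against WT, with 44 positive, and -0.0095 in S6K1 against WT, with 32 positive. Within the 4 mRNA batches, the median difference between the DKO and the WT library was 0.0114, 0.16, 0.127 and 0.0766 in batches 5, 6, 7 and 8. All 4 differences were positive, and that of batch 5 was the smallest. By class, the DKO medians were 0.17 for the modifier subunits (7 of 8 positive), 0.14 for the inward rectifiers (7 of 12), 0.13 for the K2P channels (6 of 8), 0.11 for the voltage-gated pores (12 of 15), 0.06 for the M-type and EAG-related subunits (7 of 11), 0.06 for the calcium- and sodium-activated pores (4 of 7) and -0.02 for the auxiliary subunits (5 of 10).

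In footprints the sign turned. The median of the 71 was -0.18 in DKO against WT, with 59 genes lower, against -0.01 and 52.0% over all genes. It was -0.10 in FXS against WT with 58 lower and -0.07 in S6K1 against WT with 48 lower. No member passed the adjusted threshold in any footprint contrast in edgeR, where all-gene shares were 0.165% in FXS against WT, 0.00717% in S6K1 against WT, 0.366% in DKO against WT, 0.0143% in DKO against FXS, 0.00717% in DKO against S6K1 and 0% in the interaction. At an unadjusted p under 0.05, 0 members were higher and 9 lower in FXS, where 4.09% of all genes were higher and 5.78% lower, and 1 was higher and 17 lower in DKO, where 7.5% were higher and 9.56% lower. S6K1 against WT had 3 higher and 3 lower, where 8.74% of all genes passed in either direction, DKO against FXS 1 and 1 (6.19%), DKO against S6K1 1 and 5 (8.67%) and the interaction 2 and 1 (3.07%). DESeq2 called 1 member, Kcnab3, in FXS against WT, where it called 0.817% of all genes, and 0 in the other footprint contrasts. Kcnab3 footprints were 77.7, 99.3, 94.2 and 82.3 CPM in WT and 64.7, 54.0, 72.8, 70.6 and 60.7 CPM in FXS. These ranges did not overlap, and FXS was lower in each of batches 2, 3 and 4. In limma voom 0 members were called in each footprint contrast.

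The lower median was far larger in a single footprint batch than in the others. Batch 3 holds 1 library of each genotype, and there the DKO library was lower than the WT library in 60 of the 71 genes, with a median difference of -0.45. In batch 4, the other batch with both genotypes, 45 of 71 were lower and the median was -0.05. For FXS against WT the medians were -0.0189 in batch 2, -0.34 in batch 3 and -0.045 in batch 4, for S6K1 against WT 0.0197 in batch 2 and -0.21 in batch 3, and between DKO and S6K1 -0.0019 in batch 1 and -0.28 in batch 3. The batch 3 WT library had the highest member values of all 15 footprint libraries, 0.23 log2 units above the mean over libraries at the median and above it in 60 of 71 genes. The batch 3 DKO library had the lowest, at -0.19 and 13 of 71. Without batch 3 the fitted median in DKO against WT was -0.03 with 44 genes lower, and in FXS against WT it was -0.01 with 40 lower. Every footprint and TE value of DKO, FXS and S6K1 against WT includes this batch unless it is given without it.

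**Figure D2:**
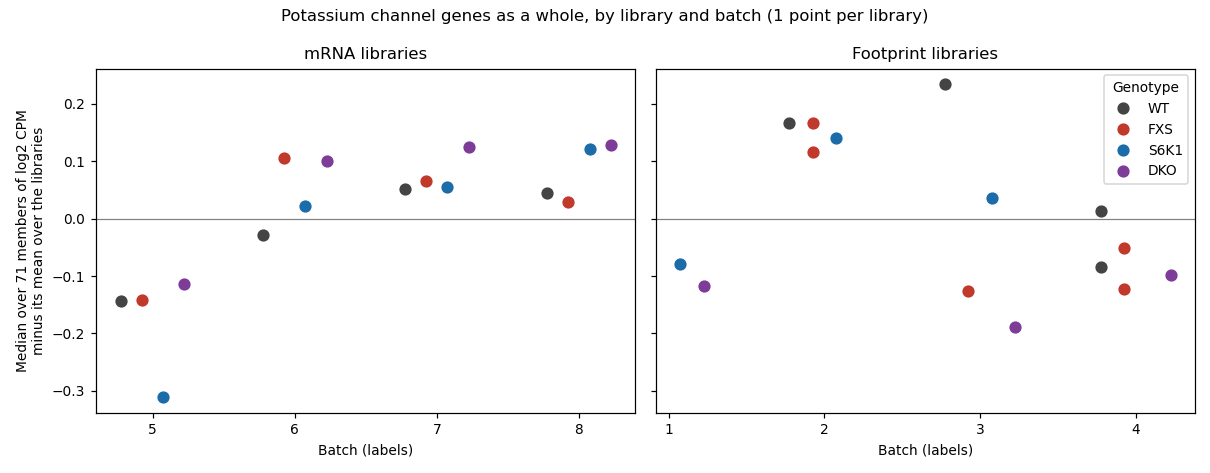
Median over the 71 potassium channel genes of log2 CPM minus the gene's mean over the libraries of that assay (vertical axis), for each mRNA library (left) and footprint library (right), by batch number in the labels. Each point is 1 library, coloured by genotype. The 4 mRNA libraries of batch 5 lie lowest, down to -0.31 for S6K1, and in footprint batch 3 the WT library (0.23) and the DKO library (-0.19) lie farthest apart.

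The fit adjusts for batch, and some group means differ in sign from it. In DKO against WT, 15 of the 71 genes had a ratio of mean footprint CPM on the other side of 1 than the fitted change, among them Kcnma1, Kcnh7 and Kcna2. Footprint batch 1 held libraries of DKO and S6K1 only. Over the unadjusted means, 54 of 71 were lower in DKO, with a median of -0.20. In mRNA, where each batch held every genotype, 1 of 71 differed in sign.

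The combination of a higher mRNA and lower footprints was the usual pattern in FXS and in DKO, each against WT. It held for 43 of 71 channel genes in DKO against WT, or 60.6%, against 29.6% of all genes tested, and for 39 in FXS against WT, or 54.9%, against 26.3%. In S6K1 against WT it held for 23, or 32.4%, against 26.8%. In DKO against FXS, where both groups lack Fmr1, it held for 31, or 43.7%, against 27.3%. The comparisons of FXS and DKO with WT share the WT libraries. FXS against WT and DKO against S6K1 share no library. They were both lower in TE for 48 of 71 members, or 67.6%, against 34.5% of all genes. Each alone was lower for most members, 55 and 56 of 71, so many would be lower in both without agreement gene by gene. Their changes had a Pearson correlation of 0.297 over the members and 0.303 over all genes. S6K1 against WT and DKO against FXS share no library either, and they were both lower for 39, or 54.9%, against 34.2%. Each alone was lower for 48 and 53, and the correlation was 0.342 over the members and 0.323 over all genes. Each of these comparisons includes a library pair of footprint batch 3, and all groups were fitted in 1 model.

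**Figure D3:**
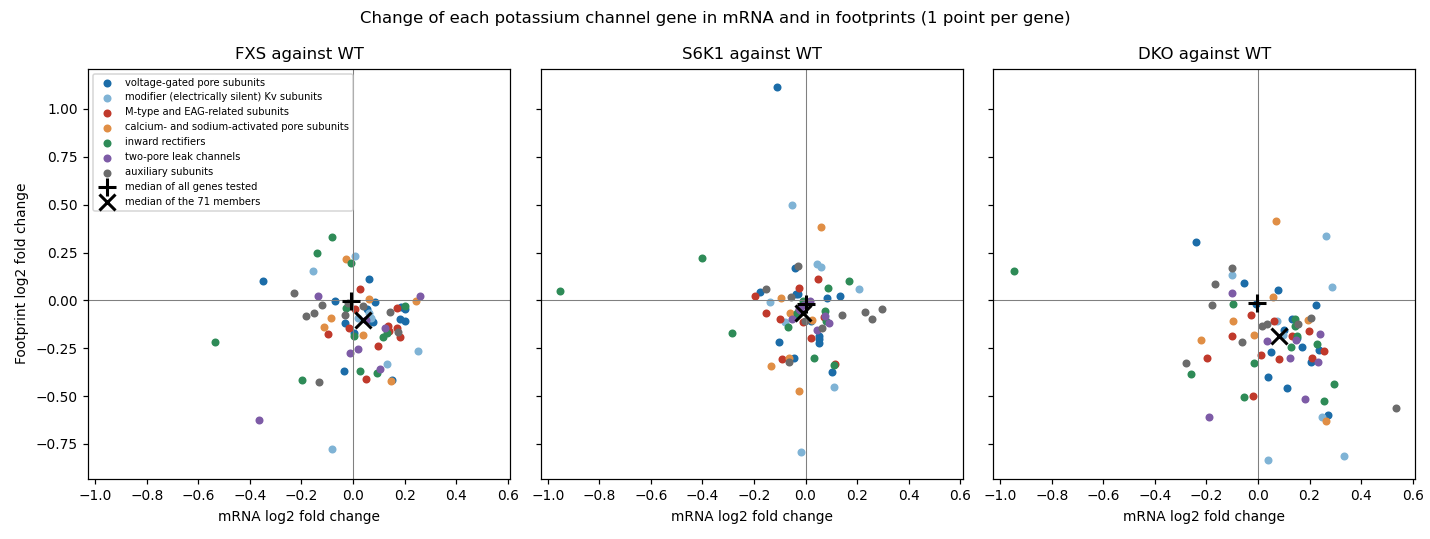
Log2 fold change in mRNA (horizontal) and in footprints (vertical) of each of the 71 potassium channel genes in FXS, S6K1 and DKO, each against WT. Points are genes coloured by class, the cross marks the median of the members and the plus sign the median of all genes tested. In DKO 43 points lie at lower right, where mRNA is higher and footprints are lower.

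TE was lower for most of these genes. The median change was -0.28 in DKO against WT with 59 of 71 lower, -0.20 in FXS against WT with 55 lower and -0.07 in S6K1 against WT with 48 lower, while the all-gene medians were -0.02, -0.01 and -0.02. In DKO against WT 4 members were called, all lower, Kcnh1, Kcnc4, Kcnn1 and Kcnj11, at a background of 4.85% in either direction and 3% lower. A count of 4 among 71 is near that background and is no result about potassium channels as a group. No member was called in FXS against WT (0.0952% of all genes), S6K1 against WT (0.0293%), DKO against FXS (0.0146%), DKO against S6K1 (0.00732%) or the interaction (0%). At an unadjusted p under 0.05, 23 members were lower and 1 higher in DKO against WT, where 14.6% of all genes were lower and 10.3% higher. There were 13 lower and 0 higher in FXS against WT (all genes: 7.7% and 5.66%) and 13 lower and 1 higher in DKO against S6K1 (7.35% and 7.27%). S6K1 against WT had 2 higher and 2 lower, where 7.51% of all genes passed in either direction, DKO against FXS 1 and 4 (8.36%) and the interaction 0 and 3 (4.14%). DESeq2 called 9 members in DKO against WT, where it called 8.56% of all genes, and 1 in DKO against S6K1 (0.242%). With limma voom 1 was called in DKO against WT (4.12%), and both tools called 0 members in the other TE contrasts. Without footprint batch 3 no member was called in TE, 50 of 71 were lower in DKO against WT and the median was -0.14, and 22 of 13638 genes were called in all. The median without that batch was -0.09 in FXS against WT with 45 lower. In S6K1 against WT it was -0.0061 with 37 lower, where the all-gene median was -0.0138.

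Kcnj11, on chromosome 7 (46097123 to 46100952 in mm10), encodes Kir6.2, the pore of the ATP-sensitive potassium channel that ties excitability to metabolism. Its mRNA gave 26.6, 33.1, 31.9 and 33.2 CPM in the WT libraries of batches 5 to 8 and 32.9, 39.6, 43.2 and 37.3 CPM in the DKO libraries. DKO was higher in each batch, and the ranges overlapped only at the DKO library of batch 5, which lay within the WT range. On the log2 scale DKO was higher by 0.29 ± 0.0848 (SE), with an edgeR adjusted p of 0.0455. Its footprints gave 15.1, 18, 10.2 and 14.3 CPM in WT and 11, 9.38 and 11.1 CPM in DKO, and 1 WT library lay among the DKO ones. The footprint change of -0.44 ± 0.201 did not pass (edgeR adjusted p = 0.286), and TE fell by 0.74 ± 0.208 (edgeR adjusted p = 0.0422). The footprint difference was -0.90 within batch 3 and -0.13 within batch 4. Leaving out 1 library lost the mRNA call for 7 of 8 libraries and the TE call for 11 of 15, and without footprint batch 3 the TE change was -0.47 with an edgeR adjusted p of 0.31.

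Kcnh1, on chromosome 1 (192189144 to 192510159), encodes the EAG channel Kv10.1. Its mRNA was 46.3, 49.4, 54.3 and 46.4 CPM in WT and 53.3, 55.1, 61.6 and 57.1 CPM in DKO, higher in DKO in every batch (log2 fold change 0.21 ± 0.0892, edgeR adjusted p = 0.162). Its footprints were 64.0, 69.5, 50.8 and 57.2 CPM in WT, 61.5, 51.4 and 46.9 CPM in DKO, and 80.1, 65.3 and 71 CPM in S6K1, so the S6K1 libraries lay in the upper part of the WT range or above it, while 1 DKO library lay below it. TE fell by 0.52 ± 0.134 in DKO (edgeR adjusted p = 0.0322) and changed by 0.09 ± 0.136 in S6K1 (0.913) and -0.32 ± 0.121 in FXS (0.269). The footprint difference between DKO and WT was -0.43 in batch 3 and -0.20 in batch 4. Of the 4 called genes it varied least in size between those batches, and without batch 3 its TE change was -0.45 with an edgeR adjusted p of 0.179. The TE call was lost for 7 of 15 single libraries left out.

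Kcnc4, on chromosome 3 (107438298 to 107460287), encodes Kv3.4, a fast channel of axons and terminals. Its mRNA was 81.6, 93.2, 98.6 and 100.4 CPM in WT and 92.1, 117, 111 and 112 CPM in DKO. Its footprints were 24.9, 30.0, 24.4 and 26.0 CPM in WT and 18.2, 17.7 and 23.5 CPM in DKO, and the ranges did not overlap. FXS, at 29.7, 28.6, 18.8, 31 and 26.1 CPM, and S6K1, at 23.5, 28.0 and 24.5 CPM, both overlapped with WT. TE fell by 0.53 ± 0.154 in DKO (edgeR adjusted p = 0.0457), against -0.10 ± 0.138 in FXS (0.788) and 0.07 ± 0.157 in S6K1 (0.944). The footprint difference was -0.75 in batch 3 and -0.10 in batch 4. The TE call was lost for 12 of 15 single libraries left out, and without batch 3 the change was -0.33 with an edgeR adjusted p of 0.21.

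Kcnn1, on chromosome 8 (70843158 to 70865691), encodes SK1, a small-conductance calcium-activated channel of the afterhyperpolarization. Its footprints were few: 341 counts over the 4 WT libraries and 157 over the 3 of DKO. They came to 3.74, 3.58, 2.95 and 3.37 CPM in WT, 1.56, 1.40 and 2.98 CPM in DKO, and 1.90, 2.08 and 2.49 CPM in S6K1. Every S6K1 library lay below every WT library, and 1 DKO library lay within the WT range. Its mRNA was 21.4, 18.1, 20.2 and 22.6 CPM in WT and 20.3, 26.6, 27.3 and 25.5 CPM in DKO, and the batch 5 pair ran opposite to the rest. TE fell by 0.90 ± 0.248 in DKO (edgeR adjusted p = 0.0397), against -0.58 ± 0.215 in FXS (0.266) and -0.45 ± 0.259 in S6K1 (0.739). The footprint difference was -1.10 in batch 3 and -0.07 in batch 4, the TE call was lost for 6 of 15 single libraries, and without batch 3 the change was -0.55 with an edgeR adjusted p of 0.328.

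**Figure D4:**
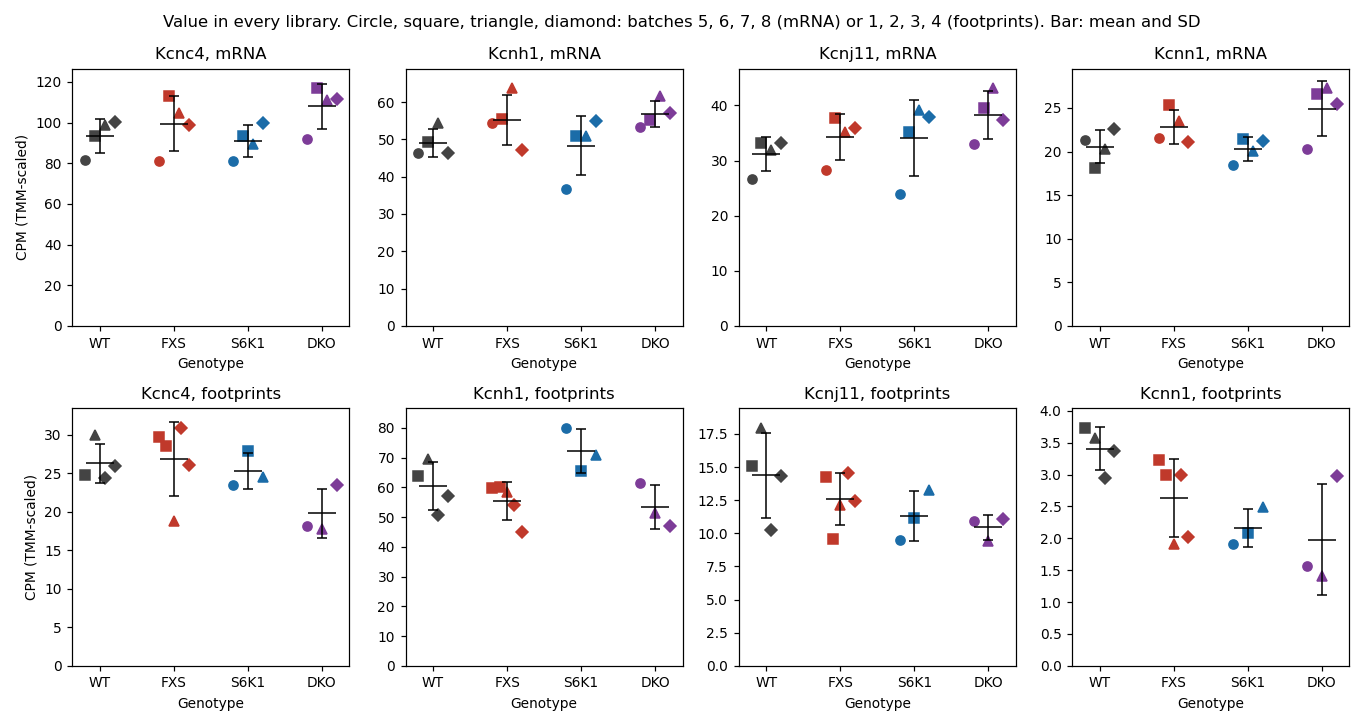
CPM (vertical axes, from 0, TMM-scaled) of the 4 potassium channel genes called in DKO against WT, in every mRNA library (top row) and footprint library (bottom row) by genotype. Marker shape gives the batch, the horizontal bar is the mean and the error bar the SD. For Kcnc4 the 3 DKO footprint libraries (17.7 to 23.5) lie below the 4 of WT (24.4 to 30.0), while for Kcnj11, Kcnh1 and Kcnn1 the footprint ranges overlap.

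Among the subfamilies with more than 1 member, Kv3 was the one in which every gene had lower TE in DKO at an unadjusted p under 0.05. Kv3 channels repolarize quickly and let neurons, above all fast-spiking interneurons, fire at high rates. TE changes were -0.57 ± 0.178 for Kcnc1 (edgeR adjusted p = 0.0587), -0.44 ± 0.168 for Kcnc2 (0.11) and -0.53 for Kcnc4. Kcnc1 footprints were 56.9, 73.7, 49.5 and 53.6 CPM in WT and 40.3, 33.8 and 46.9 CPM in DKO, with no overlap, while its mean mRNA level was 92.8 ± 15.2 CPM (SD, n = 4) for WT and 101 ± 22.0 for DKO. The median footprint difference of the 4 Kv3 genes in DKO against WT was -1.02 in batch 3 and -0.15 in batch 4, with 4 of 4 lower in both batches. The mRNA of Pvalb, which marks fast-spiking interneurons, was lower, at -0.39 ± 0.0966 in DKO against WT (edgeR adjusted p = 0.0235) and at -0.60 ± 0.0973 in FXS against WT (0.00927), and its part in the Kv3 values was not tested. Its footprints were called in neither, at -0.27 ± 0.104 (0.222) in DKO and -0.38 ± 0.0841 (0.111) in FXS. Its TE was called in neither, at 0.12 ± 0.151 in DKO and 0.22 ± 0.136 in FXS. Among the other listed interneuron markers, Slc32a1, Lhx6, Sst, Gad2 and Syt2 were higher in DKO mRNA (0.29, 0.29, 0.24, 0.03 and 0.01). Gad1 (-0.09) and Vip (-0.06) were lower, and none of these was called. In FXS against WT, Kv3 footprints had medians of -0.03, -0.83 and -0.02 in batches 2, 3 and 4.

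The M-type and EAG-related class was lower in TE in 11 of 11 genes in DKO (median -0.32) and 10 of 11 in FXS (-0.28), but in 6 of 11 in S6K1 (-0.024). Footprints of the class were lower in DKO in 11 of 11 genes in batch 3 (median -0.46) and in 8 of 11 in batch 4 (-0.11). K2P leak channels were lower in TE in 7 of 8 genes in DKO (median -0.42) and 7 of 8 in FXS (-0.27), and their batch 4 footprints were lower in 4 of 8, with a median of 0.0112. Kcnk9 footprints were 38.3, 32.1, 34.1 and 32.4 CPM in WT and 30.5, 29 and 30.2 CPM in DKO, and these did not overlap.

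The inward rectifiers were lower in TE in 10 of 12 genes in DKO (median -0.32), and the lowest value was -0.79 ± 0.291 for Kcnj9, a G-protein-gated subunit (edgeR adjusted p = 0.108). Their batch 4 footprints were lower in 10 of 12 genes with a median of -0.10. The voltage-gated pores as a whole were lower in 13 of 15, with Kcna5 and Kcnd3 the exceptions. The calcium- and sodium-activated pores had a median of -0.045 with 5 of 7 lower, and within the SK channels Kcnn1 stood at -0.90 and Kcnn3 at 0.34 ± 0.209.

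**Figure D5:**
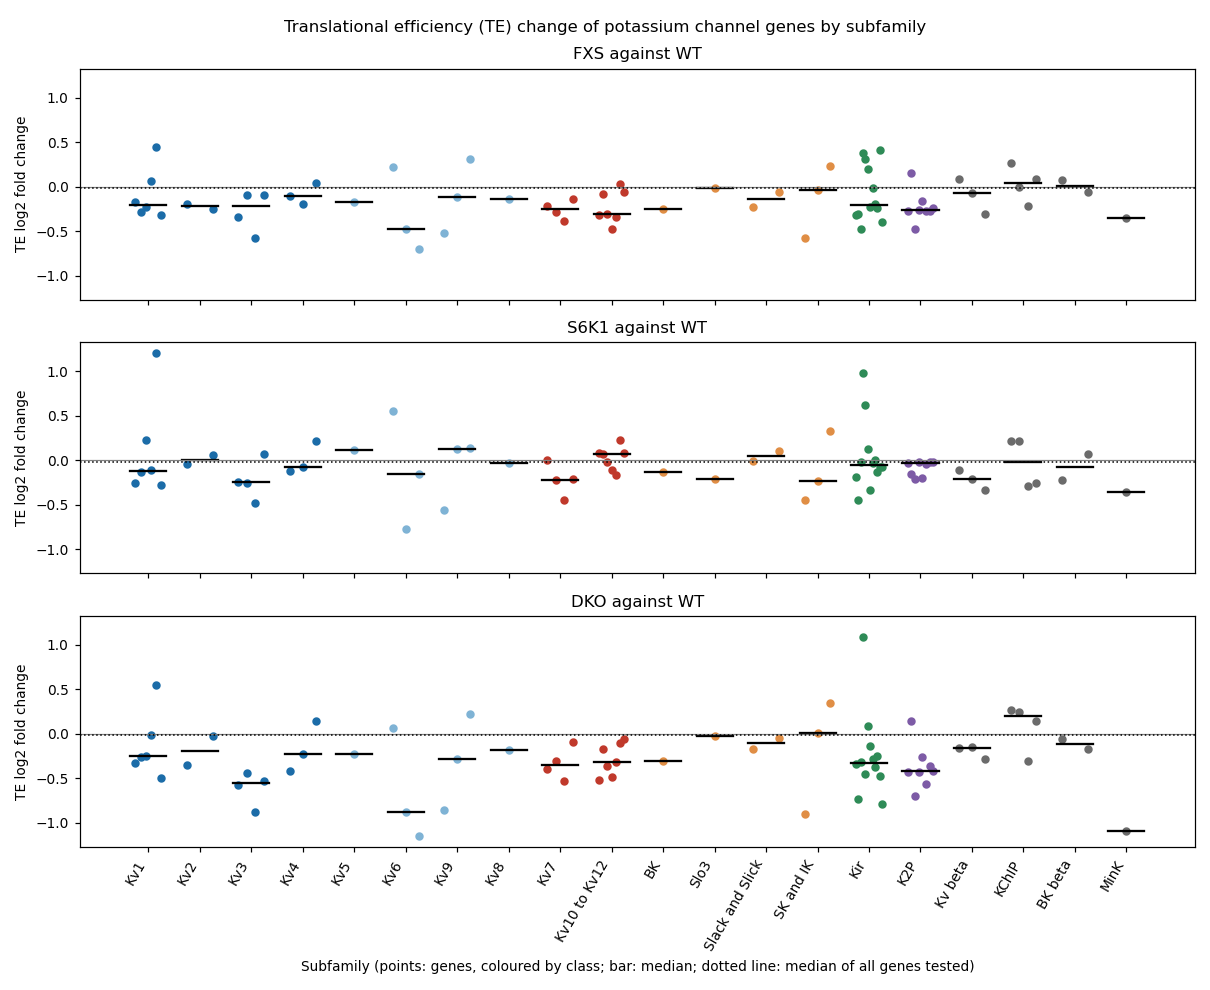
Log2 fold change in translational efficiency against WT (vertical axis) of the 71 potassium channel genes by subfamily (horizontal axis), for FXS, S6K1 and DKO. Points are genes coloured by class, black bars are subfamily medians and the dotted line is the median of all genes tested. In DKO all 4 Kv3 genes lie below 0, and 3 of 4 KChIP genes lie above it.

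KChIP subunits, the calcium-binding partners of Kv4, went the other way in DKO, with Kcnip1 at 0.27 ± 0.153, Kcnip2 at 0.25 ± 0.115 and Kcnip4 at 0.15 ± 0.141, and Kcnip3 at -0.30 ± 0.163. None passed the adjusted threshold, and the smallest edgeR adjusted p was 0.181, for Kcnip2. The span of Kcnip1 overlaps Kcnmb1. Kv4 pores did not share that sign: Kcnd1 stood at -0.42 ± 0.214, Kcnd2 at -0.23 ± 0.115 and Kcnd3 at 0.14 ± 0.164. The difference between KChIP and the other subfamilies was not tested.

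Several of the genes with the largest fitted changes in DKO had few counts, and their standard errors were large. In mRNA the lowest were Kcnj13 (-0.95 ± 0.509), Kcnmb2 (-0.28 ± 0.283) and Kcnj2 (-0.26 ± 0.188), and the highest were Kcne1l (0.54 ± 0.361), Kcng4 (0.33 ± 0.201) and Kcnj11. In footprints the lowest were Kcng2 (-0.83 ± 0.413), Kcng4 (-0.81 ± 0.301) and Kcnn1 (-0.63 ± 0.259), and the highest were Kcnn3 (0.42 ± 0.139), Kcng1 (0.34) and Kcna5 (0.30 ± 0.316). In TE the lowest were Kcng4 (-1.15 ± 0.365), Kcne1l (-1.09 ± 0.546) and Kcnn1, and the highest were Kcnj13 (1.09 ± 0.652), Kcna5 (0.55 ± 0.35) and Kcnn3. Kcng4, a silent subunit that modifies Kv2, had footprints of 1.72, 1.73, 1.43 and 1.81 CPM in WT and 0.60, 0.76 and 1.10 CPM in DKO, which did not overlap, and its TE had an edgeR adjusted p of 0.0617. The span of Kcnj13 lies over Gigyf2, and its 71 mRNA counts in DKO and 113 in WT lie behind a standard error of 0.509.

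Of a list of 10 channel genes known from fragile X research, 0 were called by edgeR in any measure or contrast. In FXS against WT all 10 were lower in footprints (median -0.11) and in TE (-0.21), as were 58 and 55 of the 71 members. At an unadjusted p under 0.05, 1 and 3 of the 10 were lower, where 5.78% and 7.7% of all genes were. The smallest edgeR adjusted p was 0.358 and 0.335. In DKO against WT 10 were lower in footprints (median -0.19) and 9 in TE (-0.28), as were 59 of the 71 members in each. At an unadjusted p under 0.05, 3 and 4 of the 10 were lower, where 9.56% and 14.6% of all genes were. The Kv4.2 gene Kcnd2 had TE changes, here and in the next sentences given for FXS and then for DKO against WT, of -0.20 ± 0.103 and -0.23 ± 0.115. Kcnc1 (Kv3.1) had -0.34 ± 0.16 and -0.57, with a footprint change in FXS of -0.37 ± 0.133. Kcnt1, the sodium-activated Slack channel, had -0.22 and -0.17 ± 0.161. The BK pore Kcnma1 had -0.26 ± 0.115 and -0.30 ± 0.128, with mRNA changes of 0.24 ± 0.0854 in FXS and 0.20 ± 0.0855 in DKO and footprint changes near 0 in both, at -0.0048 and -0.10. Its regulator Kcnmb4 had -0.06 and -0.17 ± 0.164. Kcna1 had -0.18 and -0.33 ± 0.133, Kcna2 -0.29 and -0.26 ± 0.139, and Kcnn2 -0.035 and 0.0067.

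The medians in S6K1 against WT were the smallest of the 3 single comparisons with WT. The largest footprint difference was 1.11 ± 0.326 for Kcna5 (edgeR adjusted p = 0.319), which rested on 150 counts over 3 libraries, and the mRNA of Kcnab3 was 0.30 ± 0.0735 higher (0.395). With both genes lost, the change of the members against FXS had a median of 0.05 in mRNA, -0.07 in footprints and -0.09 in TE. The interaction medians were 0.04, 0.0095 and -0.04, with 33 of 71 positive in TE.

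Genes known to work with these channels were read in the same way. Of 31 listed partners (anchors, scaffolds, sulphonylurea receptors, calmodulins and HCN channels), 30 are in the tables, and 28 were tested in TE. In TE of DKO against WT 19 of 28 were lower, where 52.1% of all genes were. The 1 that passed was Cntn2, an adhesion molecule that gathers Kv1 channels beside the node of Ranvier, at -0.66 ± 0.179 (edgeR adjusted p = 0.0374). Of all genes 3% were called lower, so 1 of 28 was near the background. The HCN channel gene Hcn2 had -0.56 ± 0.168, and Abcc8, the receptor that assembles with Kir6.2, had -0.68 ± 0.224. None passed in mRNA or footprints in FXS or DKO against WT. In mRNA 0.155% and 5.23% of all genes passed in FXS and DKO, and in footprints 0.165% and 0.366%.

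Markers of cell types also differed between genotypes, and in bulk tissue fewer cells of a type and less RNA per cell cannot be told apart. Summed footprints of 10 oligodendrocyte markers ran from 2850 to 4124 CPM in WT against 1824 to 2747 in FXS, 2673 to 2906 in S6K1 and 1922 to 2721 in DKO. In TE of DKO against WT 7 of the 10 were called lower, where 3% of all genes were. Summed mRNA of 6 excitatory neuron markers ran from 2676 to 3879 CPM in WT and from 2912 to 4456 in DKO. In DKO, where 3.17% of all genes were called higher in mRNA and 3% lower in TE, 3 and 2 of these markers were. Their summed footprints ran from 3331 to 3967 CPM in WT, 3057 to 4069 in FXS, 2606 to 3106 in S6K1 and 2787 to 3941 in DKO, so that S6K1 lay below WT without overlap. Summed footprints of 8 interneuron markers ran from 1448 to 1856 CPM in WT and from 1636 to 1954 in DKO, and Pvalb alone of them was called lower in mRNA, in DKO and in FXS. Of 6 endothelial markers 1 was called lower in mRNA in DKO, with summed mRNA of 36.4 to 111 CPM in WT and 23.2 to 74.5 in DKO. None of 9 astrocyte, 7 microglial, 6 measured striatal and 4 thalamic markers was called by edgeR in DKO against WT in any measure. At an unadjusted p under 0.05, 1, 2 and 2 astrocyte markers, 1, 0 and 0 microglial markers, 0, 1 and 1 striatal markers and 0 thalamic markers were lower in mRNA, footprints and TE, and 0 were higher. Of all genes, 10.2%, 9.56% and 14.6% were lower at that threshold in mRNA, footprints and TE, and 12.2%, 7.5% and 10.3% higher. By adjusted p, 5.23%, 0.366% and 4.85% of all genes were called in DKO against WT in either direction. In mRNA of FXS against WT 0.155% were. The part of these markers in the channel results was not tested.

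In the authors' deposited tables, which cover FXS and DKO against WT, 63 to 69 members are listed. The authors' deposited table for mRNA in DKO gives adjusted p-values under 0.05 to Kcnj11 (log2 fold change 0.29, 0.032), Kcnh3 (0.19, 0.037) and Kcnc4 (0.20, 0.043). The authors' deposited table for footprints in FXS gives one to Kcnab3 (-0.43, 0.00782), and the authors' deposited table for TE in DKO to Kcnn1 (-0.89, 0.0461). For Kcnh1, Kcnj11 and Kcnc4 the authors' deposited table of TE in DKO gives -0.50, -0.72 and -0.52, with adjusted p-values of 0.0821, 0.125 and 0.142.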

How the data were processed

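The deposited tables hold whole-number counts per gene symbol over coding sequence, made by the authors from reads of polyA-selected mRNA and of footprints. Per the submitters' processing notes, cutadapt 2.0, Bowtie2, TopHat2 and RSEM and the build mm10 were used; their order is not given in the sources used here. The authors also deposited tables of log2 fold changes and p-values for FXS and DKO against WT, used only where named. Counts were scaled by TMM (factors 0.956 to 1.09), filtered with filterByExpr and tested with the quasi-likelihood test of edgeR 4.0.16 (R 4.3.3) with batch and genotype as terms over all groups, and p-values were adjusted by Benjamini-Hochberg over all genes. TE was the footprint minus mRNA contrast in 1 model, with batch nested in assay. A gene was called at an adjusted p under 0.05. Each batch is a pairing of libraries in the labels: same-batch pairs had a median correlation of deviations of 0.27 in mRNA and 0.30 in footprints, against -0.14 and -0.10 for other pairs. DESeq2 1.42.0 and limma 3.58.1 were alternatives. Scripts were checked on simulated data.

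Genes named with values were those called, those of the fragile X list, the 5 highest and 5 lowest in WT TE, the 3 largest changes each way in DKO and those nearest the CPM threshold. Values of some members are not reported here, though the counts and medians include them. Values per kilobase were not used here. Kv3, KChIP, Kv4, Kv beta and other subfamily members beyond these were named after their values were seen. The members and lists were chosen with earlier results of these data known.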

Additional observations from a re-analysis of the deposited data

Results flagged for a closer look

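Of 72 groups of libraries examined over 12 potassium channel genes, 3 held a library standing far from the others of its genotype; chance marks about 1 in 20 groups. All 3 were in mRNA. The footprint groups of S6K1 and DKO, with 3 libraries each, were not examined. The first WT library (batch 5) gave 70.3 CPM for Kcnc1, the lowest, with the others at 98 to 103.5. The first S6K1 library (batch 5) gave 42.2 CPM for Kcnd2, the lowest, with the others at 67.1 to 70.1. In both genes the batch 5 library was the lowest of the other genotypes too. Kcnc1 gave 68.5, 61.7 and 72.9 CPM there in FXS, S6K1 and DKO. Kcnd2 gave 47.6, 46.3 and 49.0 CPM in WT, FXS and DKO. The fourth WT library (batch 8) gave 153.4 CPM for Kcnt1, the highest, with the others at 108.5 to 113.8.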

How the results depend on the processing

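Of the recomputed values over the channel genes, 664 were taken as unchanged and 38 were not. Counts were unchanged if within 1.5 times the reported count, and the 9 medians of WT TE were judged by their standard errors. Many of the 664 were contrasts with 0 genes called that stayed at 0. The rule also passed a fall from 59 to 44 lower genes in footprints of DKO against WT without batch 3, so the tally is a weak measure of stability. In TE of DKO against WT, 4 genes called became 9 with DESeq2, 1 with limma voom, 0 without the replicate block (no batch term), 0 with only the 2 genotypes, 2 with mRNA batches 6 to 8 and 0 without footprint batch 3, an alternative chosen after seeing the data. Leaving out 1 library gave 0 to 11, with 11 without the third and 8 without the first WT footprint library, and 0 without the second WT or second DKO footprint library or mRNA replicates 2 or 3 of WT or DKO. In mRNA of DKO against WT, 1 became 4 with DESeq2, 0 without the block, 0 with mRNA batches 6 to 8, and 0 to 3 with 1 library left out. DESeq2 called 3 in mRNA and 1 in TE of DKO against S6K1 (edgeR 0, with 0 to 4 in mRNA with 1 library left out) and 1 in footprints of FXS against WT. With only the 2 genotypes 1 was called in mRNA of FXS against WT. With 1 library left out, the genes lower in footprints ran from 27 to 54 in S6K1 against WT (48 with all), from 29 to 56 in DKO against FXS (52) and from 19 to 53 in the interaction (34, and 54 without the block), and those lower in TE of S6K1 against WT from 30 to 55 (48). The lowest counts, and the 53, came without the second WT or second DKO footprint library, both of batch 3, the 54 and 55 of S6K1 without the first WT footprint library (batch 2) and the 56 without the third of DKO (batch 4). No single-gene result reversed, but the direction of some counts did. In footprints the 27 of 71 in S6K1 against WT and the 29 in DKO against FXS were minorities, where all libraries gave majorities. So was the 30 in TE of S6K1 against WT. In the interaction a minority with all libraries became a majority at 53 and 54. Without footprint batch 3 the footprint median in DKO against FXS was 0.0067, against -0.07 with all libraries. The cause of these shifts was not tested.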
